A study of Mus musculus with 8 samples.

Results

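A set of 10 genes of Nodal, Lefty and activin signalling was followed in mouse embryonic stem (ES) cells, namely Nodal, Gdf3, Inhbb, Acvr2b, Tdgf1, Lefty1, Lefty2, Fst, Smad7 and Skil. They were chosen by symbol, and 10 of 10 were found among the 23284 gene entries of the deposited table. RNA was sequenced from clone 6, an ES cell line with a Ctcfl transgene that doxycycline induces, and from clone 7, a line without the transgene. The groups were clone 6 with 2 µg/ml doxycycline, clone 6 without it, clone 7 with 2 µg/ml doxycycline and clone 7 without it, all on a strain background that the labels call mixed, grown off their fibroblast feeders for 48 h. Each group had 2 libraries, 1 from each of 2 experiments. Each line is 1 clone, so the transgene and any other difference between the clones cannot be told apart, and the sources used here do not give the promoter that drives the transgene.

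Nodal and activins are secreted ligands of the TGF-beta superfamily that bind type I and type II serine/threonine kinase receptors and act through Smad2, Smad3 and Smad4. Nodal also needs the membrane-anchored coreceptor Cripto, which Tdgf1 encodes, while activins do not. The pathway switches on its own inhibitors, the Lefty proteins outside the cell and Smad7 inside it, and with the DNA-binding partner Foxh1 it also acts on Nodal itself. In the mouse embryo it patterns the epiblast and is required for the primitive streak, and ES cells use it in leaving the naive state.

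The authors deposited 1 FPKM value (sequenced fragments scaled to transcript length and library size) per gene and group, which combines both libraries. Every level below is such a group value and carries no SD. How many reads stand behind it is unknown, and group sums of FPKM ran between 717813 and 737443. All 8 ES cell markers, Pou5f1 and Nanog among them, were at 1 FPKM or more in every group. Of these 8, 3 were called between the clones in both comparisons, with Zfp42 4.39-fold and Nanog 1.86-fold higher and Sox2 0.619-fold in clone 6 with doxycycline, and 3.11-fold, 1.69-fold and 0.624-fold without it. Over all genes tested 1.52% were called in either direction with doxycycline and 1.37% without it. The part of these markers in the differences between the clones given below was not tested. The transgene's own gene, Ctcfl, reached 0.995 FPKM in clone 6 under doxycycline and 0.403 FPKM in untreated clone 6, against 0.498 and 0.513 FPKM in treated and untreated clone 7. In the authors' deposited table the difference within clone 6 did not pass (p = 0.0062, q = 0.296). The sources used here do not say how much of Ctcfl the transgene carries.

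Sequences bear on how the values of some members can be read, since the Lefty genes are near copies of each other. Their coding sequences, 1107 bases each in GENCODE release M21, were 91.9% identical. Reads of 75 bases from a stretch that is the same in both cannot be assigned to one of the genes.

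Of the 75-base windows along the longest protein-coding transcript of each member, 11.2% of those of Lefty1 and 7.21% of those of Lefty2 occurred in the transcripts of the other. For Tdgf1, 8.67% of windows also occurred in its pseudogene Tdgf1-ps1. Fst shared 1.52% of its windows with the annotated gene Gm47040, and the other 6 members shared none with any transcript of another gene. The sources used here do not say how the authors assigned such reads, so the levels of Lefty1, Lefty2 and Tdgf1 are uncertain by reads of this kind.

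Promoter sequence from RefSeq (build GRCm38.p6) was at hand for 4 of the 10 members, Nodal, Tdgf1, Acvr2b and Inhbb. The 250 bases before the start of Nodal and of its coreceptor gene Tdgf1 are shown because these genes work together at the membrane and yet differed in whether they separated the clones. They are printed in lower case, 5′ to 3′, and capitals mark the letters AATNNACA, as bound by Foxh1, and CAGAC, as bound by Smads, each searched on both strands, as was the Ctcf core AGGNGGC.

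Nodal, chr10:61417722-61417971, plus strand: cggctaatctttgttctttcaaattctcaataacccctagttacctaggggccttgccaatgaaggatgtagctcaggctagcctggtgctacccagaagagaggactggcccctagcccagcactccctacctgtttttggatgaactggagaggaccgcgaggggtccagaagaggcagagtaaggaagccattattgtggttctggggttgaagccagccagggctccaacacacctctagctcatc
Tdgf1, chr9:110946159-110946408, minus strand: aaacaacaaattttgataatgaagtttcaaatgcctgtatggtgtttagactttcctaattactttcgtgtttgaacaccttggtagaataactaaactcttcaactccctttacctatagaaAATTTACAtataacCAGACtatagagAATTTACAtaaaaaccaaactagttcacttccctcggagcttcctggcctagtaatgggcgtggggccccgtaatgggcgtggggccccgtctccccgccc

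The Tdgf1 window held AATNNACA 2 times, at positions -127 to -120 and -101 to -94 relative to the start, with CAGAC between them at -113 to -109. AATNNACA occurred in 10.9% and CAGAC in 42.2% of the 32851 promoter windows of the same length. In the Nodal window none of the motifs searched was found, which also included TATAAA (12.4% of promoters) and the Tcf/Lef motif CTTTGAT (3.21%). Only bases just before the start were searched, so sites within a gene or farther from its start would not be seen. In the Acvr2b window CAGAC was found on the minus strand at -233 to -229, and the Inhbb window held none of the motifs. AGGNGGC, present in 25.0% of promoters, was in none of the 4 member windows. A match to these letters is no evidence of binding, and the motifs do not overlap each other in these windows. Whether the motifs bear on which genes separated the clones was not tested.

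**Figure D1:**
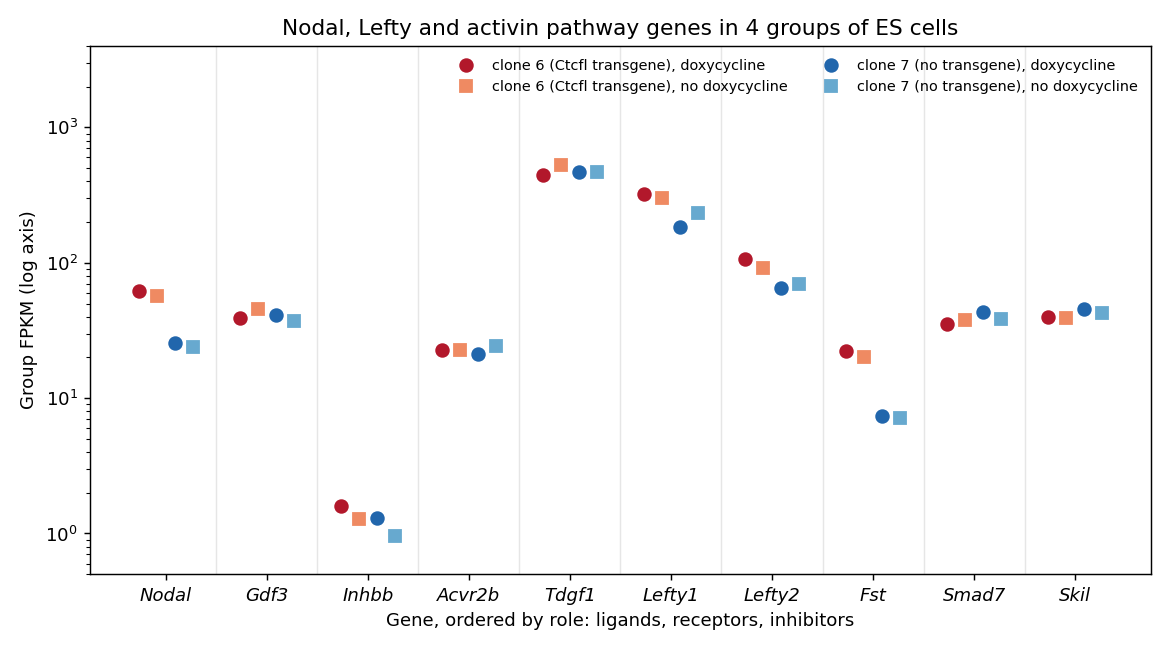
Group FPKM (log axis) of the 10 genes in the 4 groups, 1 point for each group, with clone 6 in red and orange and clone 7 in blue. Nodal, Lefty1, Lefty2 and Fst had both clone 6 points above both clone 7 points, and no other gene of the 10 did. Smad7 and Skil had both clone 6 points below both clone 7 points. How many of all genes separate in either way was not counted, so this describes the points only.

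By level, Tdgf1 stood highest of the 10, at 447 to 531 FPKM over the 4 groups, followed by Lefty1 (185 to 324 FPKM) and Lefty2 (64.8 to 107 FPKM). Nodal ranged from 24.0 to 61.8 FPKM, and Skil, Gdf3 and Smad7 had means over the groups of 41.8, 40.8 and 38.8 FPKM. Acvr2b and Fst had means of 22.7 and 14.3 FPKM. Inhbb, which encodes the beta B subunit of activin and inhibin, was lowest at 0.964 to 1.59 FPKM. The spread over the 4 groups set the members apart, since the highest group value was 3.17 times the lowest for Fst and 2.58 times for Nodal. It was 1.65 to 1.76 times for Lefty2, Inhbb and Lefty1 and 1.14 to 1.23 times for the remaining 5. Differences between genes in level were not tested.

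The clones were compared first with doxycycline and then without it. Among the ligands, Nodal (chromosome 10, 61417972 to 61425337 in mm10) was at 61.8 FPKM in clone 6 with doxycycline and 56.7 FPKM in clone 6 without it, against 25.8 FPKM in clone 7 with doxycycline and 24.0 FPKM in clone 7 without it. Both clone 6 values lay above both clone 7 values, and the share of all genes with such an order was not counted. Nodal was 2.40-fold higher in clone 6 with doxycycline (log2 1.26, SE 0.29) and 2.36-fold higher without it (log2 1.24, SE 0.27). The authors' deposited table gives p = 5e-05 and q = 0.00812 for both, the smallest values it holds. Bulk RNA cannot tell a higher level in every cell from a larger share of cells that express the gene.

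The ligand Gdf3, which like Nodal signals through Cripto, showed no such separation. It was at 39.1 FPKM in clone 6 with doxycycline and 45.3 FPKM in clone 6 without it, against 41.4 FPKM in clone 7 with doxycycline and 37.4 FPKM in clone 7 without it, so the clones overlapped. The log2 difference was -0.08 with doxycycline (approximate 95% interval -0.75 to 0.58) and 0.28 without it (-0.33 to 0.89), which leaves room for a difference in either direction. Nodal thus stood at 1.58 and 1.25 times the FPKM of Gdf3 in clone 6 with and without doxycycline, and at 0.623 and 0.641 times in clone 7.

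Inhbb was at 1.59 FPKM in clone 6 with doxycycline and 1.27 FPKM in clone 6 without it, against 1.29 FPKM in clone 7 with doxycycline and 0.964 FPKM in clone 7 without it. These levels are close to each other and the intervals wide, reaching log2 1.41 between the clones without doxycycline. Another activin subunit gene, Inhba, which is not among the 10, was more abundant, at 33.9 and 28.5 FPKM in clone 6 with and without doxycycline and 24.0 and 20.5 FPKM in clone 7. Inhba was not called in either comparison of the clones (log2 0.50 and 0.47, with p = 0.0604 and 0.05895 in the authors' deposited table).

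Neither receptor gene separated the clones. Acvr2b, a type II receptor that binds Nodal and activins, was at 22.7 FPKM in clone 6 with doxycycline and 22.6 FPKM in clone 6 without it, against 21.2 FPKM in clone 7 with doxycycline and 24.1 FPKM in clone 7 without it. Its log2 difference between the clones was 0.10 with doxycycline (interval -0.34 to 0.53) and -0.09 without it (-0.48 to 0.30). Tdgf1 (Cripto) was at 447 FPKM in clone 6 with doxycycline and 531 FPKM in clone 6 without it, against 472 FPKM in clone 7 with doxycycline and 469 FPKM in clone 7 without it. The log2 difference for Tdgf1 was -0.08 with doxycycline (interval -0.62 to 0.46) and 0.18 without it (-0.33 to 0.69). Relative to Nodal, Tdgf1 was at 7.24 and 9.37 times its FPKM in clone 6 with and without doxycycline and at 18.3 and 19.6 times in clone 7.

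The secreted inhibitors Lefty1 and Lefty2, which bind Nodal and its coreceptor, were both called higher in clone 6 with doxycycline. Lefty1 was at 324 FPKM in clone 6 with doxycycline and 302 FPKM in clone 6 without it, against 185 FPKM in clone 7 with doxycycline and 231 FPKM in clone 7 without it. Lefty2 was at 107 FPKM in clone 6 with doxycycline and 91.4 FPKM in clone 6 without it, against 64.8 FPKM in clone 7 with doxycycline and 69.6 FPKM in clone 7 without it. For each gene both clone 6 values lay above both clone 7 values, an order whose share over all genes was not counted. Of the comparisons of the clones only that with doxycycline passed the threshold.

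With doxycycline Lefty1 was 1.76-fold higher in clone 6 (log2 0.81, SE 0.20; p = 5e-05, q = 0.00812 in the authors' deposited table) and Lefty2 1.65-fold higher (log2 0.72, SE 0.28; p = 0.00035, q = 0.0388). The Lefty2 call is lost at a q threshold of 0.01. Without doxycycline Lefty1 stood at 1.31 times its clone 7 value (log2 0.39, SE 0.17; p = 0.0393, q = 0.858 in the authors' deposited table), and so did Lefty2 (log2 0.39, SE 0.27; p = 0.03605, q = 0.822). A pass in one comparison and not in the other does not show that they differ, and the test of that difference, given with the doxycycline responses, did not pass for either gene.

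The Lefty genes kept a similar proportion to each other, with Lefty1 at 3.03 and 3.31 times the FPKM of Lefty2 in clone 6 with and without doxycycline and 2.85 and 3.33 times in clone 7. Their sum was 6.98 and 6.95 times the FPKM of Nodal in clone 6 with and without doxycycline, and 9.68 and 12.6 times in clone 7. So per unit of Nodal RNA there was less Lefty RNA in clone 6, although both Lefty genes had more RNA there. These ratios are descriptions of group values and were not tested.

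Lefty2 (180893119 to 180899102) and Lefty1 (180935039 to 180938401) lie near each other on chromosome 1 in mm10, with Tmem63a next to Lefty1. Tmem63a was at 16.1 against 10.3 FPKM with doxycycline (log2 0.65), and at 15.6 against 11.4 FPKM without it (log2 0.45). The authors' deposited table does not call Tmem63a (q = 0.509 with doxycycline and 0.9996 without it). The genes on either side of Nodal, X99384 and Eif4ebp2, had log2 differences between -0.14 and 0.09, while Ndufs4, next to Fst, had 0.09 and 0.02.

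Fst (chromosome 13, 114452262 to 114458730 in mm10) encodes follistatin, a secreted protein that binds activin and keeps it from its receptors. It was at 22.5 FPKM in clone 6 with doxycycline and 20.2 FPKM in clone 6 without it, against 7.40 FPKM in clone 7 with doxycycline and 7.09 FPKM in clone 7 without it. Fst had the largest fold of the 10 genes between the clones, 3.03-fold with doxycycline (log2 1.60, SE 0.41) and 2.85-fold without it (log2 1.51, SE 0.38), each at p = 5e-05 and q = 0.00812 in the authors' deposited table. Relative to Inhba, Fst was at 0.663 and 0.709 times its FPKM in clone 6 with and without doxycycline and at 0.308 and 0.346 times in clone 7.

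Markers of the feeder fibroblasts were measured alongside, since the cells were taken off feeders before the experiment. The summed level of 12 such markers was 579 and 519 FPKM in clone 6 with and without doxycycline, against 348 and 344 FPKM in clone 7. Most of that sum came from Tagln, Col1a1 and Acta2, while Lum was under 1 FPKM in every group and none of the 12 was listed at 0. Most of the list was not called by the deposited test. With doxycycline 2 of the 11 tested markers (Tagln and Acta2) were called, both higher in clone 6, and without it 1 (Tagln) was, also higher. Over all genes tested 0.857% were called higher with doxycycline and 0.797% without it. The 9 markers other than Tagln, Col1a1 and Acta2, split off after their values were seen, summed to 90.5 and 97.0 FPKM in clone 6 with and without doxycycline, against 87.9 and 85.1 FPKM in clone 7. The part these cells had in the Fst, Nodal and Lefty differences was not tested.

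Neither intracellular inhibitor was called between the clones. Smad7, an inhibitory Smad that blocks the activated receptor, was at 35.4 FPKM in clone 6 with doxycycline and 37.6 FPKM in clone 6 without it, against 43.6 FPKM in clone 7 with doxycycline and 38.7 FPKM in clone 7 without it. Skil, which encodes the Smad corepressor SnoN, was at 39.5 FPKM in clone 6 with doxycycline and 39.2 FPKM in clone 6 without it, against 45.9 FPKM in clone 7 with doxycycline and 42.5 FPKM in clone 7 without it. Both genes had clone 6 values below both clone 7 values, and the share of all genes with this order was not counted either.

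For Smad7 the log2 difference was -0.30 with doxycycline (interval -0.86 to 0.26) and -0.04 without it (-0.57 to 0.49). For Skil it was -0.21 with doxycycline (interval -0.78 to 0.35) and -0.12 without it (-0.84 to 0.60). Smad7 and Skil are known targets of Smad signalling, as the Lefty genes are.

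**Figure D2:**
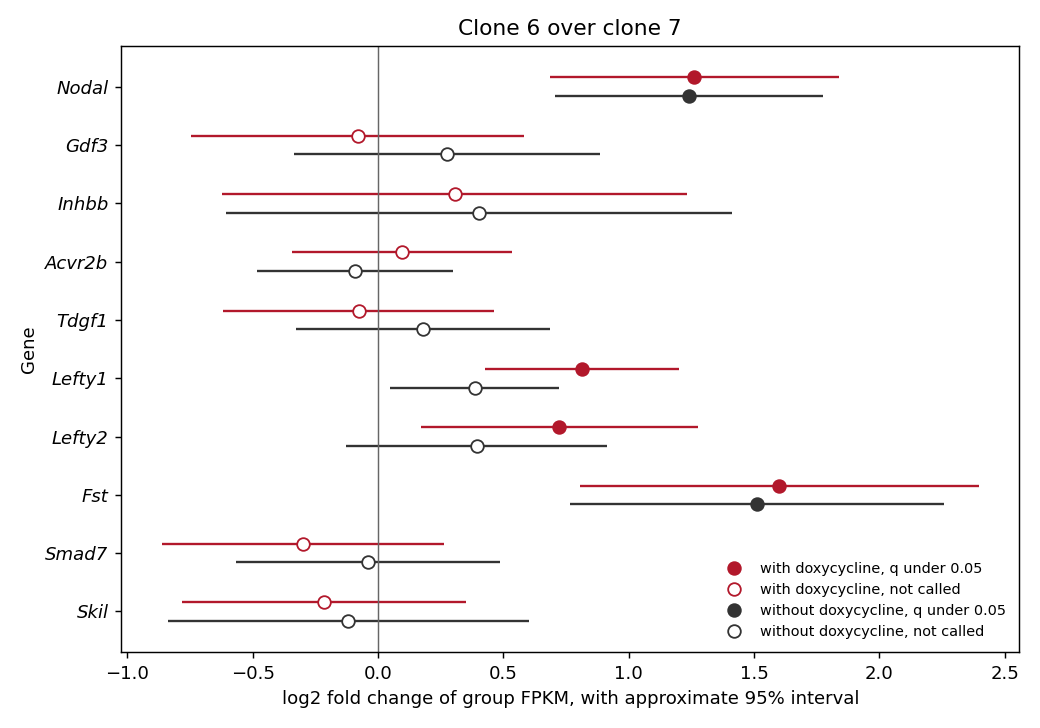
log2 fold change of group FPKM, clone 6 over clone 7, for the 10 genes with doxycycline (red) and without it (black). Points are ratios of group values, bars are approximate 95% intervals, and filled points passed a deposited q of 0.05. Nodal and Fst are filled in both comparisons and the Lefty genes with doxycycline only.

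In all, 4 of the 10 members were called with doxycycline, all higher in clone 6, beside 0.857% of the 13064 genes tested called higher and 1.52% called in either direction. Without doxycycline 2 of the 10 were called, both higher in clone 6, beside 0.797% of 13047 genes called higher and 1.37% called in either direction. None was called lower in clone 6. The median log2 fold change of the members was 0.20 with doxycycline and 0.33 without it, beside -0.02 and -0.0010 over all genes tested. The authors' deposited table has an unadjusted p below 0.05 for Nodal, Lefty1, Lefty2 and Fst in both comparisons, beside 7.9% of all genes tested with doxycycline and 6.59% without it. The members were chosen with these results known, so the counts describe the list and are no test of it.

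The next question was what doxycycline changed within each clone. Nodal was at 61.8 against 56.7 FPKM with and without doxycycline in clone 6 (log2 0.13, interval -0.38 to 0.63) and at 25.8 against 24.0 FPKM in clone 7 (log2 0.10, interval -0.50 to 0.71). Fst had log2 changes of 0.15 (-0.49 to 0.80) in clone 6 and 0.06 (-0.82 to 0.94) in clone 7. These changes are small beside the difference between the clones for the same genes, and all the intervals include 0.

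By the test in the authors' deposited table, which has the layout of Cuffdiff output, none of the 10 members was called in clone 6, where 0.108% of 13003 genes were called (0.0923% higher and 0.0154% lower), or in clone 7, where 0.0% of 12908 were. The members with an unadjusted p under 0.05 numbered 0 in each clone as well, beside 1.08% and 0.108% of all genes tested. The largest rise and fall in clone 6 were at Inhbb (log2 0.33) and Tdgf1 (log2 -0.25), neither of which was called. In clone 7 Inhbb (log2 0.42) and Lefty1 (log2 -0.33, interval -0.69 to 0.04) stood at the ends. Median changes over the 10 were 0.06 in clone 6 and 0.08 in clone 7, beside 0.0003 and 0.02 over all genes tested.

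**Figure D3:**
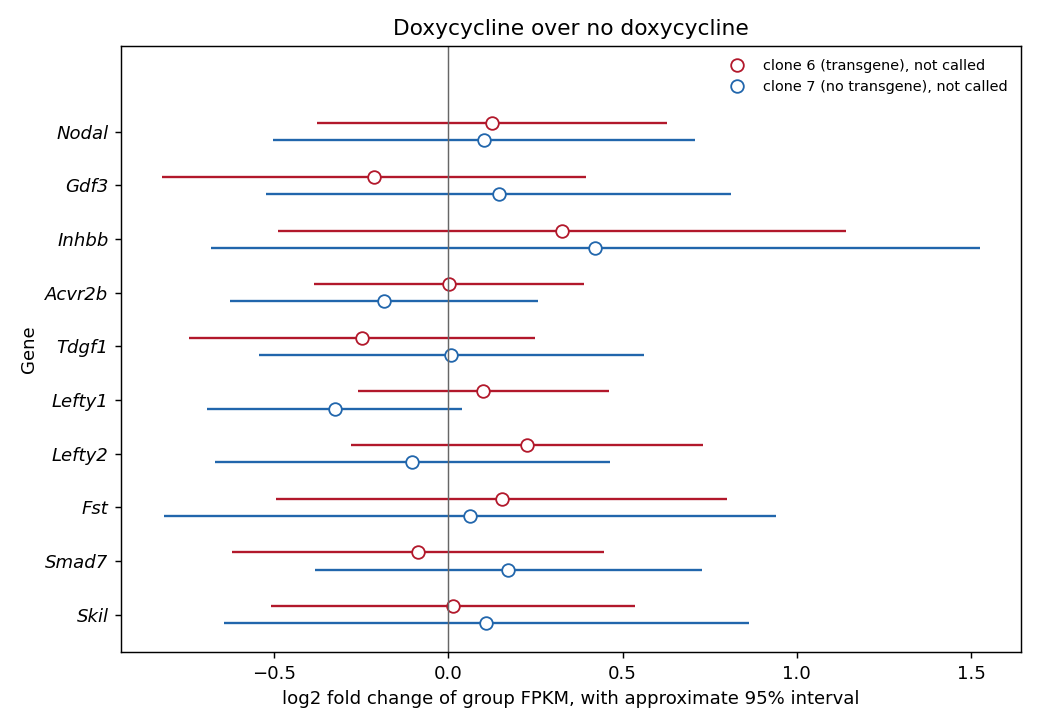
log2 fold change of group FPKM, doxycycline over none, in clone 6 (red) and clone 7 (blue). Points are ratios of group values and bars are approximate 95% intervals. All 20 intervals include 0.

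Whether the response to doxycycline differed between the clones was tested by a two-sided normal test on the deposited statistics, which is the same test as whether the clone difference changes with doxycycline. Of the 10 members 0 were called and 0 had an unadjusted p under 0.05, beside 18 called (0.142%) and 58 at an unadjusted p under 0.05 (0.459%) of 12638 genes. With standard errors taken from the deposited p, 0 of all genes were called and 26 had an unadjusted p under 0.05 (0.206%). Relative to its SE the largest difference was that of Lefty1, 0.43 on the log2 scale, clone 6 minus clone 7 (SE 0.26, interval -0.09 to 0.94). For Lefty2 the difference was 0.33 (interval -0.43 to 1.09), and for Nodal 0.02 (-0.76 to 0.81). All of these intervals include 0 and are wide. A share of 0.459% of genes under an unadjusted p of 0.05 is far below that threshold, so the test seldom passes. The lack of calls among the members therefore does not show that the clones responded alike.

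The wider pathway, outside the 10 genes, was described from 55 further genes in 7 roles, all found in the table, Ldlrad4 under an older symbol. With doxycycline 7 of 48 tested were called higher in clone 6 and 0 lower, beside 0.857% and 0.666% of all genes tested. Without doxycycline 7 of 48 were higher and 0 lower, beside 0.797% and 0.575%. The median log2 fold changes were 0.24 and 0.23. Within the list most calls fell on the target genes, with 6 of 9 tested called higher in each comparison. The wider list was also chosen with earlier results of these data known. These counts therefore describe the list and its roles and are no test of them.

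The largest differences in the wider list were those of genes listed as targets. The T-box factor T was at 36.3 FPKM in clone 6 with doxycycline and 22.4 FPKM in clone 6 without it, against 2.02 and 1.67 FPKM in clone 7. Eomes, a T-box factor upstream of mesendoderm genes, was at 15.2 and 18.8 FPKM in clone 6 with and without doxycycline, against 2.67 and 2.79 FPKM in clone 7. Fgf8, Wnt3 and Sp5 were also called in both comparisons, with log2 fold changes of 3.24, 2.88 and 3.37 with doxycycline and 3.14, 2.29 and 3.01 without it. These genes answer to Wnt and Fgf signals as well as to Nodal, and which signal lay behind their differences was not tested.

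Mixl1, a homeobox factor of the streak, passed with doxycycline (3.50 against 0.653 FPKM, q = 0.0344) and not without it (2.08 against 0.800 FPKM, q = 0.296) in the authors' deposited table. The Mixl1 call is lost at a q threshold of 0.01 and is not made where 1 FPKM is required in both groups. Gsc was at 3.52 against 0.638 FPKM with doxycycline and 3.37 against 0.901 FPKM without it and was called in neither. Foxa2 and Lhx1 stayed under 1 FPKM in every group.

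The called target genes overlap with the markers of the primitive streak, whose sum differed between the clones. The summed level of 8 such markers was 61.4 and 49.7 FPKM in clone 6 with and without doxycycline, against 7.06 and 7.37 FPKM in clone 7. Most of that sum came from T and Eomes, and 4 of the 8 were under 1 FPKM in every group. Tbx6 was at 0.441 and 0.545 FPKM in clone 6 with and without doxycycline, against 0.529 and 0.542 FPKM in clone 7. Of 5 tested markers 3 were called with doxycycline and 2 without it, all higher in clone 6. The shares of all genes tested that were called higher were 0.857% and 0.797%. Of the 8 markers 6 also stand among the 10 target genes, so this is no separate measurement. The summed level of 6 endoderm markers was between 6.86 and 7.66 FPKM in all 4 groups, with 4 of the 6 under 1 FPKM throughout. That of 5 neural ectoderm markers was 120 and 150 FPKM in clone 6 with and without doxycycline, against 176 and 180 FPKM in clone 7. Most of that sum came from Pou3f1, Otx2 and Nes, while Sox1 was under 1 FPKM in every group. Pax6 was at 0.991 and 0.916 FPKM in clone 6 with and without doxycycline, against 3.28 and 2.30 FPKM in clone 7. Nes was slightly higher in clone 6, at 32.7 against 30.2 FPKM with doxycycline and 36.4 against 34.5 FPKM without it. Of the 5, 2 (Pax6 and Pou3f1) were called lower in clone 6 with doxycycline and 0 without it. The shares of all genes tested that were called lower were 0.666% and 0.575%. The part of cells with streak markers in the Nodal, Lefty and Fst differences was not tested.

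Among the intracellular inhibitors Pmepa1, a Smad-induced gene whose product keeps Smads from the receptor, was at 12.8 and 14.8 FPKM in clone 6 with and without doxycycline, against 7.85 and 8.23 FPKM in clone 7. The authors' deposited table calls it without doxycycline (1.80-fold, q = 0.0145) and not with it (1.63-fold, q = 0.261). None of the other 7 inhibitors was called, beside 1.52% and 1.37% of all genes tested with and without doxycycline. The phosphatase gene Ppm1a, the most abundant of them, was at 51.6 against 59.1 FPKM with doxycycline and 54.9 against 58.5 FPKM without it.

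Among the transducers of the signal no difference was called. Of 10 genes for Smads and their partners 0 were called in either comparison, beside 1.52% of all genes tested with doxycycline and 1.37% without it. At such shares 0 calls among 10 genes say little about these genes. The median log2 fold changes of the 10 were 0.03 with doxycycline and 0.08 without it. Foxh1, the DNA-binding partner of Smad2 and Smad3, had the largest log2 fold change of this role without doxycycline, at 98.9 against 72.6 FPKM with doxycycline (log2 0.45) and 95.4 against 75.8 FPKM without it (log2 0.33). Drap1, a corepressor that binds Foxh1, was the most abundant of them, at 124 against 105 FPKM with doxycycline and 104 against 102 FPKM without it. With an unadjusted p below 0.05 there were 0 of these 10 genes in either comparison, by the authors' deposited values. The share over all genes tested was 7.9% with doxycycline and 6.59% without it.

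Among the receptors 0 of 7 tested genes were called, beside 1.52% and 1.37% of all genes tested with and without doxycycline. The most abundant, the type I receptor gene Tgfbr1, was at 6.95 against 8.41 FPKM with doxycycline and 7.22 against 7.52 FPKM without it. Tgfbr3 (betaglycan) had the largest fold without doxycycline, at 1.98 against 1.24 FPKM (log2 0.67, p = 0.03855, q = 0.850 in the authors' deposited table). The type I receptor gene Acvr1b was at 6.07 against 5.55 FPKM with doxycycline and 6.86 against 6.21 FPKM without it, and was not called. Levels of Acvr1c, another Nodal receptor gene, and of Cfc1, the paralog of Tdgf1, stayed under 1 FPKM in every group and were not tested.

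Of the other extracellular inhibitors 0 of 5 tested genes were called, beside 1.52% and 1.37% of all genes tested with and without doxycycline. The Nodal antagonist Cer1 stayed under 1 FPKM in every group. Fstl1 was the most abundant (27.0 against 29.0 FPKM with doxycycline, 27.7 against 25.8 FPKM without it), and Bambi, a decoy receptor, was at 1.49 against 1.42 FPKM and 1.81 against 1.34 FPKM. Furin and Pcsk6, convertases that cleave the Nodal precursor, were not called either. Furin was at 16.8 against 12.6 FPKM with doxycycline and 15.5 against 12.9 FPKM without it, and Pcsk6 at 7.24 against 5.27 FPKM and 6.52 against 5.15 FPKM.

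Of the other ligands Tgfb1 was the 1 called between the clones with doxycycline, at 23.6 against 10.5 FPKM (log2 1.16, q = 0.00812 in the authors' deposited table). It was also the 1 gene of the 49 tested in the wider list called for doxycycline in clone 6, at 23.6 against 12.7 FPKM (log2 0.89, q = 0.0429 in the authors' deposited table), beside 0.0923% of all genes called higher there. The Tgfb1 call for doxycycline is lost when p-values are adjusted within that comparison and at a q threshold of 0.01. Clone 7 had 10.5 FPKM of Tgfb1 under doxycycline and 10.8 FPKM when untreated. Tgfb2 was at 1.74 against 0.869 FPKM between the clones with doxycycline and 1.54 against 0.743 FPKM without it and was not called. In clone 7 0 of the 46 tested genes of the wider list were called for doxycycline, and 0 had an unadjusted p below 0.05, by the test the authors deposited.

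**Figure D4:**
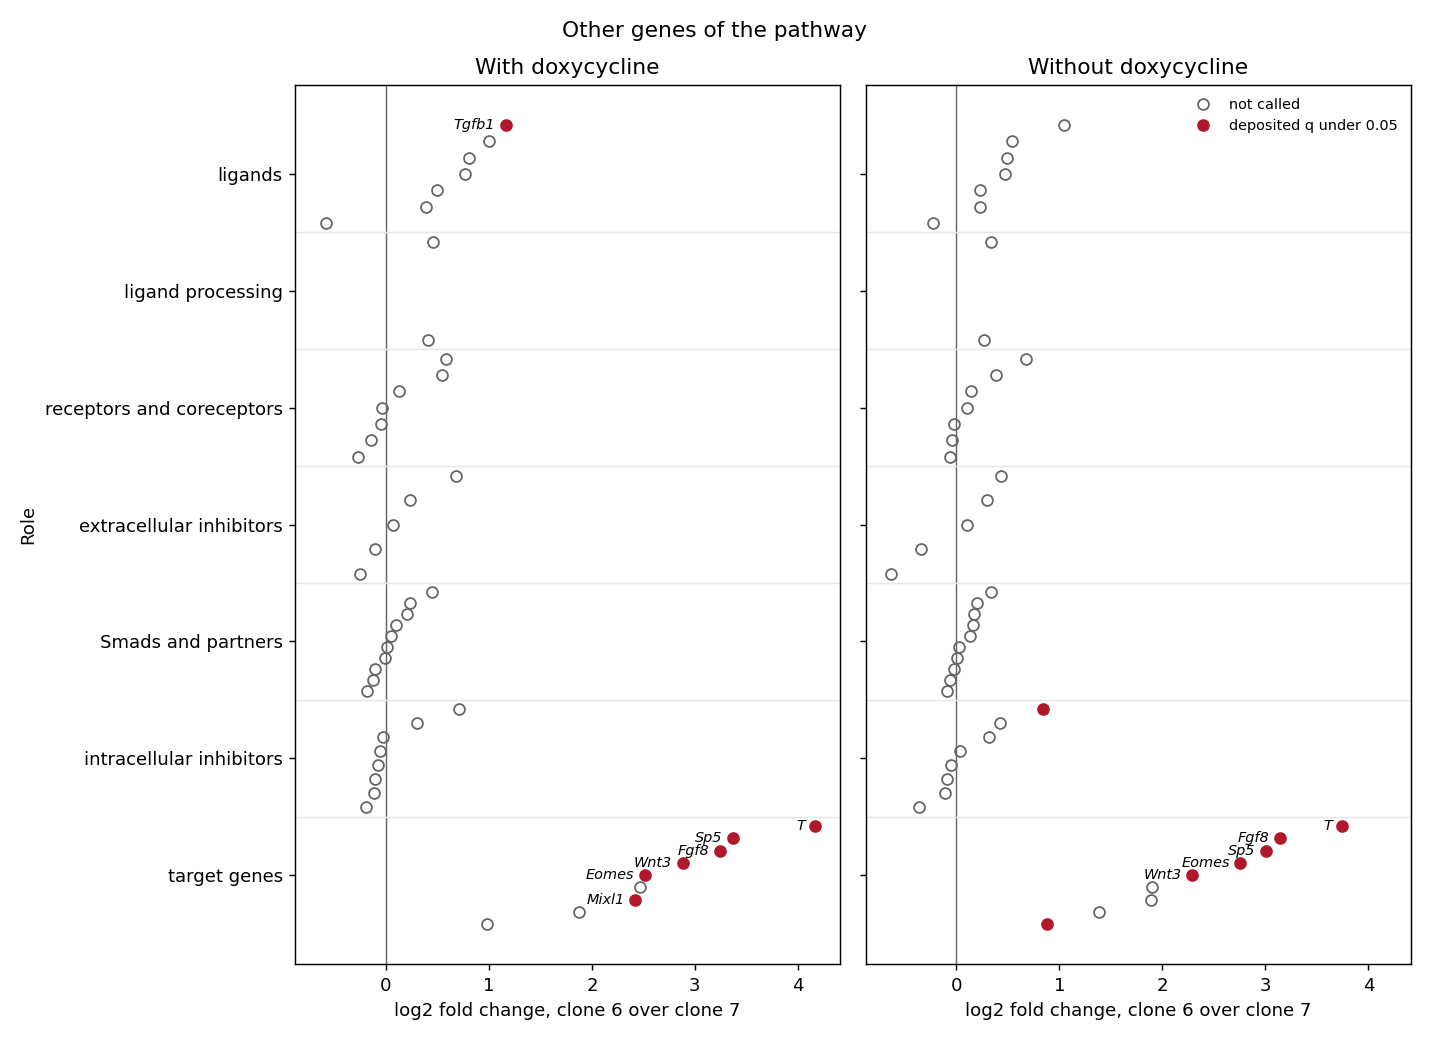
log2 fold change of group FPKM, clone 6 over clone 7, with doxycycline (left) and without it (right), 1 point for each tested gene of the wider pathway list, spread within its role for display. Filled points passed a deposited q of 0.05, 7 in each comparison and all of them to the right of 0, and those above a log2 fold change of 1 are named.

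The 5 genes whose pattern over the 4 groups was most like that of Nodal were Cxx1c, S100a10, Klhl9, Nt5e and Alox15, out of 11603 genes at 1 FPKM or more in every group. Likeness was the Euclidean distance between centred log2(FPKM + 1) values, and it was 0.07 for Cxx1c and 0.15 for Alox15. S100a10, which encodes a partner of annexin A2, was at 260 and 233 FPKM in clone 6 with and without doxycycline and at 114 and 108 FPKM in clone 7. Of the members Fst came nearest, at rank 23, followed by Lefty2 at rank 269 and Lefty1 at rank 278. The ranking is over 4 group values and depends on the measure, since with a pseudocount of 0.1 only 2 of the 5 genes stayed and with a Pearson correlation none did.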

How the data were processed

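RNA from 8 libraries in 4 groups of 2 was sequenced as 75 bp single-end reads, per the labels' protocols. TopHat2 2.0.8, Cufflinks 2.1.1 and genome build mm10 are named in the submitters' processing notes, without their roles. The sources used here do not give the gene annotation, the strand setting or the library normalization. The authors deposited 1 FPKM value per gene and group, a test statistic (a score with no fixed range), a p-value and a q-value for each of 6 pairwise comparisons. The deposited q-value matched Benjamini-Hochberg adjustment over the 78127 tests of all 6 comparisons to within 5.21e-07. The test statistic and p-value are the authors' own, and 481 tests share the smallest deposited p of 5e-05.

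Genes were called at a deposited q under 0.05 where the authors made a test. Fold changes are ratios of the deposited FPKM values, computed with no pseudocount (Python 3.11.15, pandas 2.3.3, scipy 1.17.1). Standard errors are the log2 fold change divided by the deposited test statistic, and 95% intervals are normal approximations. The deposited p can differ from what that statistic gives under a normal curve, so interval and p need not match. For the difference between doxycycline responses, the log2 fold changes were subtracted, their variances added and a normal test made, adjusted by Benjamini-Hochberg over 12638 genes. The script was run on simulated normal values drawn with these same standard errors, which does not show that the errors suit the data. In the data 0.459% of genes had an unadjusted p under 0.05, far below that threshold, so the test seldom passes. The deposited p-values come from the authors' test on groups of 2 libraries, which the labels call biological replicates. For doxycycline 1.08% of genes in clone 6 and 0.108% in clone 7 had an unadjusted p under 0.05. Shares so far below the threshold mean that these p-values need not follow the spread between the libraries. No p-value here measures spread between clones, since each line is 1 clone. The 10 members and the gene lists were chosen with earlier results of these data known. All 10 members are named. Of the wider list, genes called in a comparison, the most abundant of each role and the one with the largest fold between the clones without doxycycline at 1 FPKM or more are named, and others were added after their values were seen. Some items that these rules select are not reported here. Coordinates are 1-based mm10.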

Additional observations from a re-analysis of the deposited data

How the results depend on the processing

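The deposited values combine the libraries of a group, so no library could be left out. No paired analysis was possible because the deposited columns carry no value per library. Counts of called members were unchanged, or within 1.5 times, when p-values were adjusted within each comparison, when the threshold was 0.01 or 0.1, and when only genes at 1 FPKM or more in both groups were kept. The Lefty2 call with doxycycline was the 1 member call lost, at a threshold of 0.01. In the wider list 6 genes in place of 7 were called between the clones with doxycycline, and 5 in place of 7 without it, at that threshold. In the wider list the Tgfb1 call for doxycycline in clone 6 was lost, leaving 0, with adjustment within that comparison (0.433 after Benjamini-Hochberg adjustment of the p-values the authors deposited) and at a threshold of 0.01. Under pseudocounts of 1 and 0.1 and 2 ways of rescaling the groups, 159 of 160 member fold changes kept their sign. The exception was Tdgf1 for doxycycline in clone 7, at log2 -0.01 against 0.01. Rescaling moved all genes by at most 0.04 on the log2 scale. Standard errors taken from the deposited p left 0 members, and 0 of all genes against 18, called in the test of the response difference. Low levels, above all of Inhbb, limit what could be detected.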
